A study of Mus musculus with 6 samples.

Results

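The 24 genes described here encode proteins that tag, cut, degrade or fold other proteins, and each stands on the list of probe sets that the authors deposited as enriched in proprioceptive neurons of muscle spindles. Proprioceptive sensory neurons have their cell bodies in the dorsal root ganglia. Those supplying muscle spindles (MS) report muscle length, and those supplying Golgi tendon organs (GTO) report muscle tension. The genes were taken by their titles: 29 of the 626 listed probe sets had a title with 1 of 12 words such as ubiquitin, ring finger, peptidase or chaperone, and 24 remained after titles of other functions, Dnajb6 and Hspb1 had been left out. Each gene had 1 listed probe set, out of 45101 on the array. Any other probe sets of these genes could not be looked at. A value given for a gene is thus that of 1 probe set, listed for being higher in MS.

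RNA was measured on 3 arrays of MS neurons and 3 arrays of GTO neurons, 1 array per sample. Every mouse carried the alleles Egr3::WGA-cherry, PV:Cre and Thy1-lsl-YFP on a mixed C57bl/129sv background. Ganglia of both sexes were taken on postnatal days 7 to 10, and the neurons were separated by fluorescence-activated cell sorting. MS neurons were sorted as positive for Cherry, a red fluorescent protein made under Egr3, and for YFP, a yellow fluorescent protein that depends on the Cre recombinase made under PV. GTO neurons were sorted as YFP-positive cells without Cherry, so a spindle neuron with no detected Cherry would fall in the GTO gate. The labels call both populations enriched, not pure. Cells of several sorts were pooled, to about 1250 neurons for an MS sample and about 725 for a GTO sample. The labels call the samples biological replicates and do not give the animals behind each pool.

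Ubiquitin is a small protein that is joined to other proteins in a chain of steps. An activating enzyme (E1) hands it to a conjugating enzyme (E2), and a ligase (E3) chooses the protein that receives it. Deubiquitinating enzymes take it off again, and proteins that carry certain ubiquitin chains are cut up by the proteasome. SUMO and NEDD8 are related small proteins, and NEDD8 switches on the cullin family of ligases. Peptidases cut proteins or peptides, and chaperones help proteins to fold or assemble. In neurons this machinery is known for its part in axon growth, in synapse turnover and in the breakdown of injured axons.

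The values are log2 signals per probe set. Since probe sets bind with different strength, levels are compared between samples and not between genes. A value under log2 4 is taken as background. The authors selected the list on these same 6 arrays, at 5-fold or more and a p-value below 0.08 with MS higher, per the file headers. That rule took 1.39% of all probe sets outside the controls, and the 24 genes by definition. The differences given for them are therefore a description of what was selected, and carry no test. Genes higher in GTO or alike in both populations could not be on the list, and only the list pairs probe sets with genes.

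Arrays of the GTO samples were dimmer in general. The upper quartile of all values ranged over 6.79 to 6.87 on the MS arrays, against 5.57 to 6.68 on the GTO arrays, and the pools of GTO neurons were smaller. The median log2 difference of the 16256 probe sets tested was 0.31 with MS higher. Neuron class, number of neurons and array signal cannot be told apart here, nor can fewer cells that make an RNA and less of that RNA per cell.

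Of the 24 genes, 23 had every MS array above every GTO array, as had 9.9% of all tested probe sets and 569 of the 602 other listed probe sets. The exception was Psma1. The median log2 difference of the 24 was 3.17, with a range from 2.40 for Uri1 to 4.79 for C1galt1c1, against 3.23 for the other listed probe sets. In limma, a linear model fitted over all tested probe sets, 3 probe sets (0.0185%) passed an adjusted p of 0.05. None of the 24 was among them, with a lowest adjusted p of 0.127, while all 24 had an unadjusted p under 0.05 in limma and 21 in the authors' deposited table. Both counts follow from the selection. Among all tested probe sets, 6.48% had an unadjusted p under 0.05 and were at least 2-fold higher in MS.

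**Figure D1:**
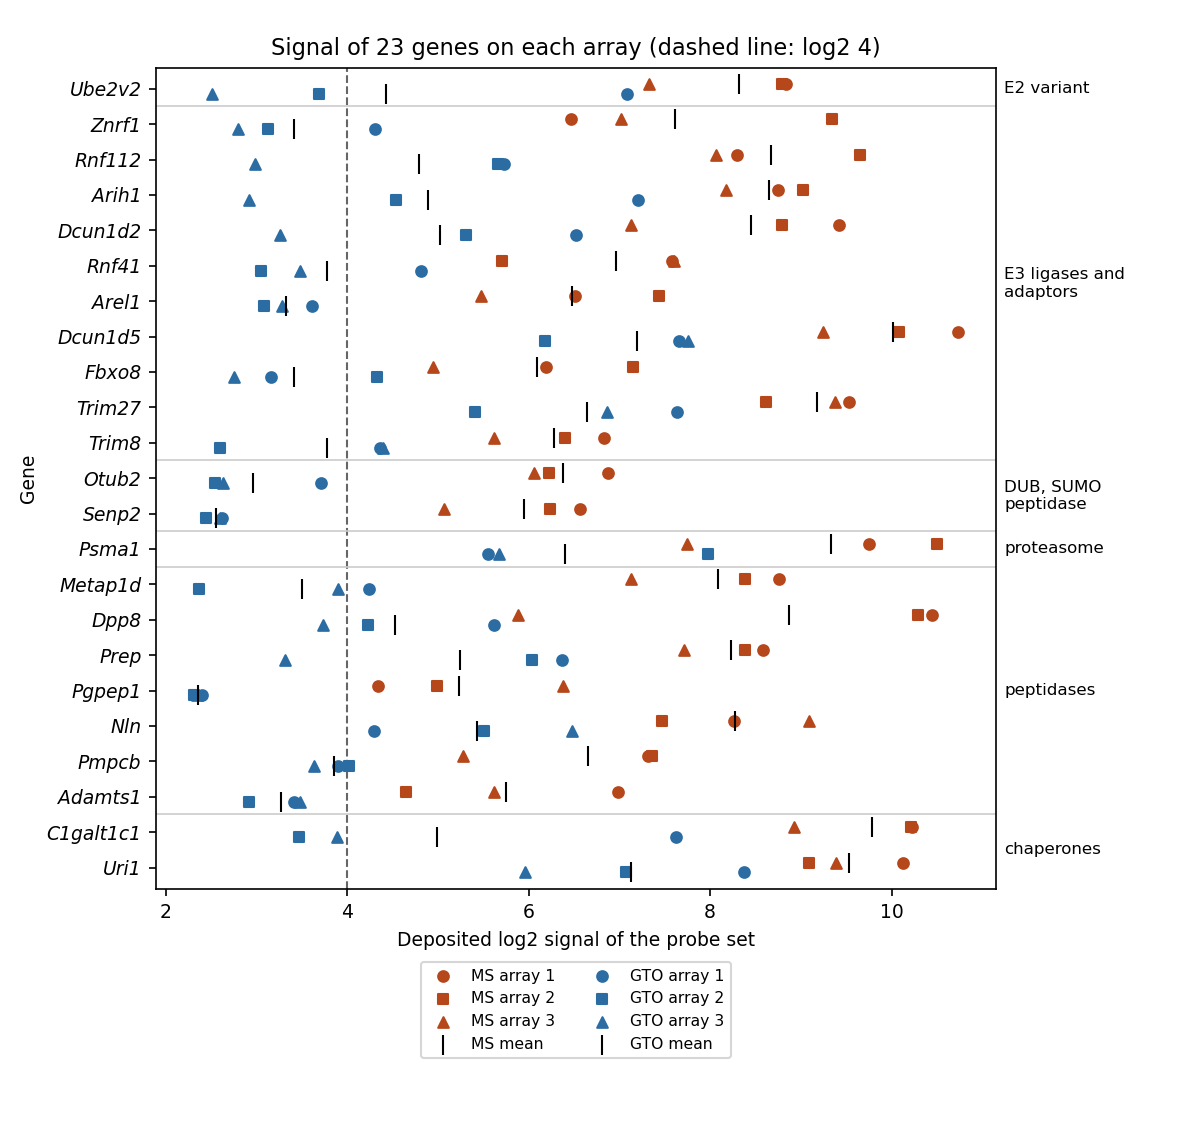
Deposited log2 signal (x axis) of 23 of the 24 genes (y axis, grouped by role) on 3 MS arrays (brown) and 3 GTO arrays (blue), with black ticks at the group means. Every MS value is above the dashed line at log2 4, and Psma1 is the gene in which an MS and a GTO array cross.

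Promoters of these genes, from RefSeq with the assembly GRCm38.p6, were searched for common sequence motifs. The choice of the genes did not use promoter sequence, but it took genes with signal in MS. All 24 were above background on every MS array. They are set beside all promoters, whether or not the gene had signal here. Whether genes above background in general have the same promoter traits was not tested. A promoter here is the 250 bases before and 50 bases after a start. The table held 22 promoters for 18 of the 24 genes, and some genes had more than 1 start. The table had no entry for 6 genes, Ube2v2, Rnf112, Trim8, Prep and C1galt1c1 among them. The 4 promoters below come from the proteasome, the enzymes that remove SUMO, and the peptidases. The capitals in each mark 1 motif discussed after them, on either strand: TGACG in Psma1 (proteasome), TGACGTCA in Senp2 (SUMO peptidase), CCGGAAG in Dpp8 (cytosolic peptidase) and TATAAA in Adamts1 (secreted peptidase).
Psma1, chr7:114276067-114276366, minus strand: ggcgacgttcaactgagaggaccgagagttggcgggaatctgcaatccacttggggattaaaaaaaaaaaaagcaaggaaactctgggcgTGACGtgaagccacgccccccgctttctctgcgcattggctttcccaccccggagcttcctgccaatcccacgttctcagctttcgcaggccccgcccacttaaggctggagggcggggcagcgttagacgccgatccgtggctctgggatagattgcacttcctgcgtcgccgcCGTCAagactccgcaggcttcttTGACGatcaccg
Senp2, chr16:22009234-22009533, plus strand: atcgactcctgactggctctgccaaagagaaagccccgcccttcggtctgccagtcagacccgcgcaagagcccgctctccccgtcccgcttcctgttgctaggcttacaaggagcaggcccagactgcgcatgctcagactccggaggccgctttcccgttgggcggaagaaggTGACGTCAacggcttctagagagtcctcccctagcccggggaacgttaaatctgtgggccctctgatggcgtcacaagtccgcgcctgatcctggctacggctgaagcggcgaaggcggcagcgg
Dpp8, chr9:65032208-65032507, plus strand: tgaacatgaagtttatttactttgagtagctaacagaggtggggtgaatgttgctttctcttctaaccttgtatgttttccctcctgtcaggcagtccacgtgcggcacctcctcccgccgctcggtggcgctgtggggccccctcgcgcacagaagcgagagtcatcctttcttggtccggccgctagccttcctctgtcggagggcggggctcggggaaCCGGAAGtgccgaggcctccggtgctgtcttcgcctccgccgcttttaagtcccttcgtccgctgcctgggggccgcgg
Adamts1, chr16:85803064-85803363, minus strand: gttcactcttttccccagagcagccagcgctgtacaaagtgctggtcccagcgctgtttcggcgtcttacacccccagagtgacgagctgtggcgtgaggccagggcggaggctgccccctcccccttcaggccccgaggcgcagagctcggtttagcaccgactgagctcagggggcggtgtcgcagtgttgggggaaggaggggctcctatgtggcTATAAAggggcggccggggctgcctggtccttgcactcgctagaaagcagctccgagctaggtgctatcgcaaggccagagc

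The promoters of these genes were mostly rich in CpG. The median GC content of the 22 was 60.2%, against 52.7% over all 32851 promoters of the table, and the median ratio of observed to expected CpG was 0.738, against 0.384. GC content ranged from 42.3% for Arel1, whose promoter held 0 CpG, to 80.3% for 1 of the starts of Znrf1. Of the 22, 11 reached 60% GC.

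**Figure D2:**
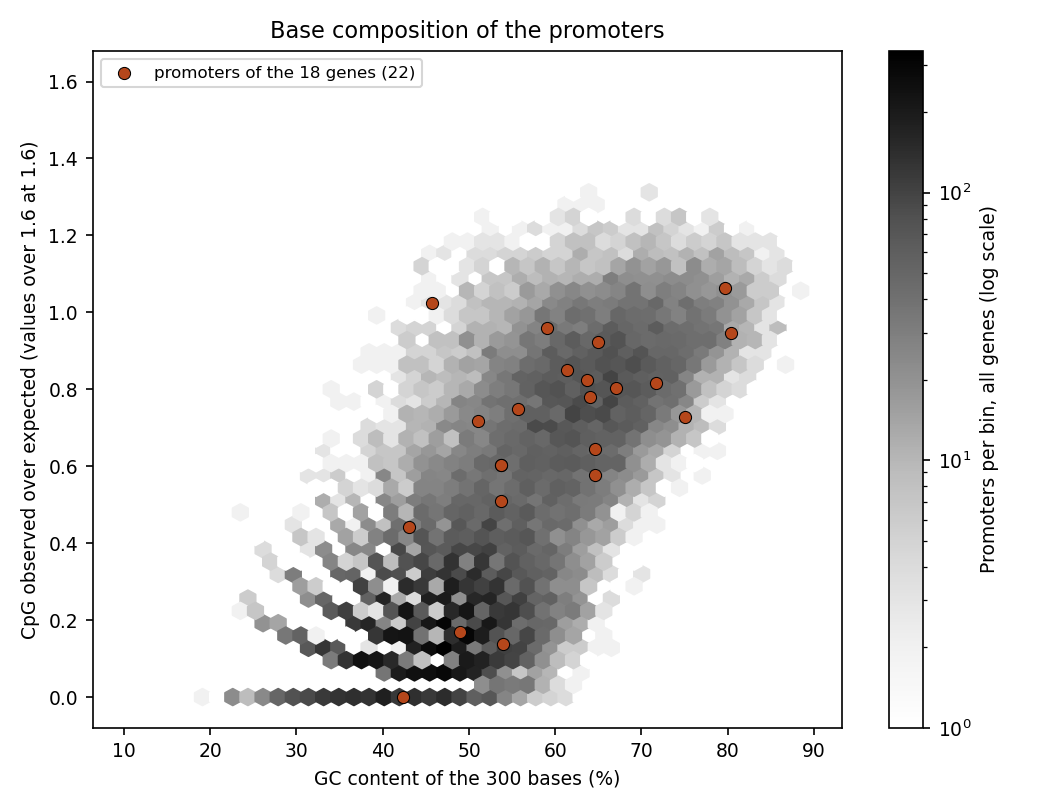
GC content (x axis, %) and CpG observed over expected (y axis) of the 22 promoters of 18 genes (brown points) over the density of all 32851 RefSeq promoters (grey). Most points lie in the CpG-rich cloud, and Arel1 lies at the bottom with no CpG.

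A set of 9 promoter motifs was searched on both strands. The short site of cyclic AMP response elements, TGACG, was in 11 of 22 promoters (9 of 18 genes), against 20.8% of all promoters and 31.6% of those with at least 60% GC. Its full palindrome TGACGTCA, which contains the short site, was in Senp2 alone, with its first base at -75 from the start, against 1.79% of all promoters and 3.03% of those with at least 60% GC. Psma1 held the short site 3 times. The core of sites for ETS factors, CCGGAAG, was in 5 promoters, those of Dcun1d5, Dpp8, Fbxo8, Pmpcb and Rnf41, against 8.86% of all promoters and 16.6% of those with at least 60% GC. In Dpp8 its first base lay at -29.

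The box of SP1, GGGCGG, was in 13 of 22 promoters, against 35.7% of all and 80.6% of those with at least 60% GC. The CCAAT box was in 7 promoters, against 37.4% of all and 31.6% of those with at least 60% GC. The E-box CACGTG was in 3, against 7.15% and 10.8%. The TATA motif TATAAA was in those of Adamts1 and Arel1, 9.09% of the 22, which lies below the 13.6% of all promoters and above the 3.21% of those with at least 60% GC. In Adamts1 the first base of TATAAA lay at -32. The core of the antioxidant element, TGACNNNGC, known from stress control of proteasome genes, was in Fbxo8 alone (12.4% of all and 15.3% of those with at least 60% GC). The heat shock element, alternating GAA and TTC blocks, matched in 0 of the 22 promoters (0.603% of all and 0.31% of those with at least 60% GC). Starts of the same gene share bases, 2 of Otub2 almost all of them, and a match in letters is not a bound site.

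Among the enzymes that prepare ubiquitin, the list held 1 gene, Ube2v2. It encodes an E2 variant that lacks the catalytic cysteine and pairs with the E2 Ube2n to build chains that act as signals in DNA damage tolerance. Ube2v2 read 8.83, 8.79 and 7.33 on MS arrays 1, 2 and 3, against 7.08, 3.69 and 2.51 on GTO arrays 1, 2 and 3. GTO array 1 lay 0.25 under the lowest MS array, while the other two GTO arrays were at background. The log2 difference was 3.89, and it was 5.22 without GTO array 1 and 2.93 without GTO array 3. Of 34 E2 genes in a list written for this work, Ube2v2 was the 1 on the deposited list (2.94%), and of 10 E1 genes there were 0. For scale, the list held 1.39% of all probe sets and 2.53% of all protein-coding genes of RefSeq (554 of 21900), whether or not these had a probe set, so that shares over genes and over probe sets have different bases. The shares of the lists given below rest on 0 to 4 genes each.

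Ligases and their adaptors made up the largest group, with 11 genes and a median log2 difference of 3.18. Znrf1, a RING ligase of endosomes and lysosomes known in mouse to promote the breakdown of injured axons, read 6.47, 9.35 and 7.02 on MS arrays 1, 2 and 3, against 4.31, 3.13 and 2.80 on GTO arrays 1, 2 and 3. All MS values were well above those of GTO, and MS array 2 stood above the other two. The log2 difference was 4.20, and it was 3.33 without MS array 2 and 3.51 with GTO values under log2 4 set to 4.

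Rnf112, or neurolastin, joins a RING domain to a dynamin-like GTPase domain and is known from brain. It read 8.30, 9.65 and 8.06 on the MS arrays, against 5.73, 5.66 and 2.98 on the GTO arrays. GTO array 3 was the lowest by a wide margin, and the log2 difference of 3.88 came to 2.97 without it. Arih1, a ligase that passes ubiquitin on within cullin complexes, read 8.75, 9.02 and 8.17 on the MS arrays, against 7.21, 4.54 and 2.92 on the GTO arrays. The MS values were close together and the GTO values spread over 4.29. Its log2 difference of 3.76 came to 4.91 without GTO array 1 and to 2.77 without GTO array 3.

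Both listed members of the DCN1-like family, whose proteins help to attach NEDD8 to cullins, were higher in MS on every array. Dcun1d2 averaged 8.45 ± 1.19 in MS and 5.03 ± 1.65 in GTO (± SD, n = 3 each), and Dcun1d5 averaged 10.02 ± 0.75 in MS and 7.20 ± 0.88 in GTO. The log2 differences were 3.42 and 2.82. Dcun1d5 was above background on all 6 arrays, so its difference does not depend on background values, whereas Dcun1d2 was under log2 4 on GTO array 3. Its difference came to 2.53 without that array, to 4.16 without GTO array 1 and to 4.08 without MS array 3. Of 15 core genes of cullin ligases in the list written for this work, 0 were on the deposited list, against 2.53% of all protein-coding genes.

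The RING ligase gene Rnf41, whose product degrades the receptor ErbB3, averaged 6.96 ± 1.08 in MS and 3.78 ± 0.92 in GTO (± SD, n = 3 each). The HECT ligase gene Arel1, which acts against cell death by degrading inhibitors of antiapoptotic proteins, averaged 6.48 ± 0.98 in MS and 3.33 ± 0.27 in GTO. Arel1 was at background on every GTO array and thus at least 5.56-fold higher in MS, or at least 3.98-fold without MS array 2. For Rnf41, GTO array 1 read 4.81 and the other GTO arrays were under log2 4, and its log2 difference of 3.18 came to 3.81 without MS array 2. Fbxo8, an F-box protein with a Sec7 domain that acts on the small GTPase Arf6, averaged 6.09 ± 1.11 in MS and 3.41 ± 0.82 in GTO, a log2 difference of 2.68. Its nearest arrays were MS array 3 at 4.94 and GTO array 2 at 4.33.

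The tripartite motif genes Trim27 and Trim8 encode ligases of a family with a RING domain. Trim27, a ligase of endosomal sorting, averaged 9.17 ± 0.49 in MS and 6.64 ± 1.13 in GTO (± SD, n = 3 each), all above background, and the log2 difference of 2.54 came to 1.92 without GTO array 2. Trim8, a regulator of cytokine and NF-kappa-B signalling, read 6.83, 6.40 and 5.62 on the MS arrays, against 4.36, 2.60 and 4.39 on the GTO arrays. The groups were 1.23 apart at their nearest arrays, and the log2 difference of 2.50 came to 1.90 without GTO array 2, the lowest.

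**Figure D3:**
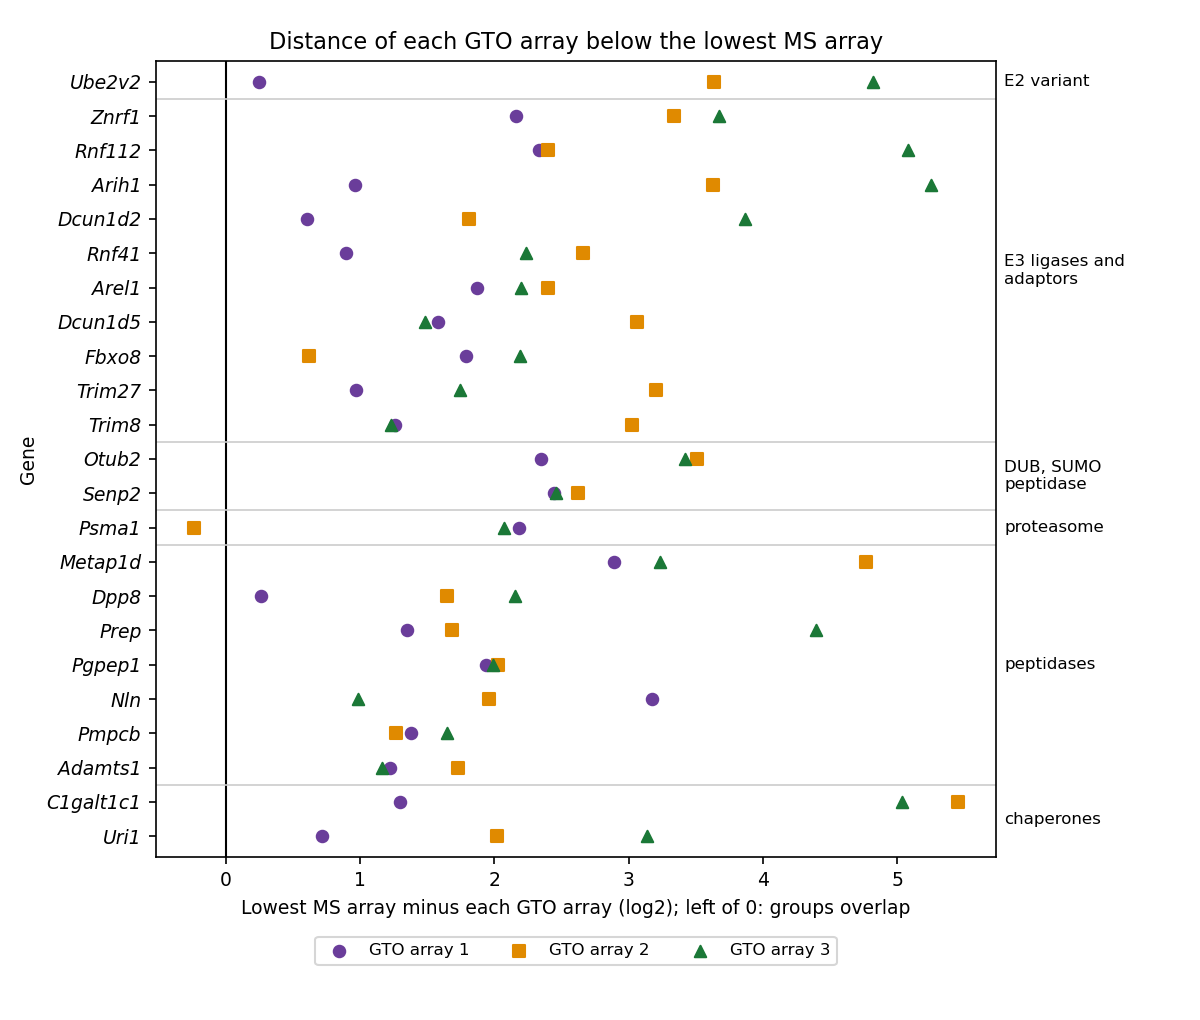
Log2 distance (x axis) from the lowest MS array down to GTO array 1, 2 and 3 for 23 of the 24 genes (y axis). GTO array 1 lies 0.25 below the lowest MS array for Ube2v2 and 0.27 for Dpp8, and GTO array 2 crosses it for Psma1, while all 3 lie at least 2.89 below it for Metap1d.

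Enzymes that remove ubiquitin or SUMO were represented by Otub2 and Senp2, both at background in GTO neurons. Otub2, a deubiquitinating enzyme of the OTU family, read 6.87, 6.22 and 6.06 on the MS arrays, against 3.71, 2.55 and 2.64 on the GTO arrays, at least 5.22-fold higher in MS. Senp2, which matures SUMO and takes it off proteins, read 6.57, 6.23 and 5.06 on the MS arrays, against 2.62, 2.44 and 2.60 on the GTO arrays. That made Senp2 at least 3.88-fold higher in MS, or at least 3.13-fold without MS array 1. The GTO arrays lay within 0.18 of each other for Senp2, and within 1.16 for Otub2. The promoter of Senp2 printed above holds the cyclic AMP palindrome.

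Of 70 deubiquitinating enzymes in the list written for this work, 4 were on the deposited list (5.71%), and Otub2 was 1 of them. The share over all protein-coding genes was 2.53%. The others have titles without the words used here. Atxn3, the ataxin mutated in Machado-Joseph disease in humans, averaged 8.45 ± 0.09 in MS and 5.10 ± 0.92 in GTO. Bap1, a nuclear deubiquitinating enzyme, averaged 10.23 ± 0.73 in MS and 7.67 ± 1.00 in GTO (± SD, n = 3 each). Otud7b, a regulator of NF-kappa-B, was at background on every GTO array and at least 12.7-fold higher in MS, or at least 6.53-fold without MS array 2. Of 19 SUMO pathway genes, Senp2 was the 1 on the deposited list (5.26%).

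The proteasome was represented by Psma1, an alpha subunit of the ring that forms the gate of the core particle. It read 9.75, 10.50 and 7.74 on MS arrays 1, 2 and 3, against 5.56, 7.97 and 5.67 on GTO arrays 1, 2 and 3. The groups overlapped, since GTO array 2 was 0.23 above MS array 3, and no array was at background. The log2 difference was 2.93. It was 3.72 without MS array 3 or without GTO array 2, and 2.35 without MS array 2. The authors' deposited table gives Psma1 the highest p-value of the 24, 0.0620. Of 17 genes of the core particle, 1 was on the deposited list (5.88%), and of 25 genes of the regulatory particle and its activators, 0 were. The share over all protein-coding genes was 2.53%. The other subunits were not analysed here.

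The 7 peptidases act in different places and had a median log2 difference of 2.88. Both mitochondrial enzymes were among them. Metap1d, which takes the first methionine off proteins in mitochondria, read 8.76, 8.38 and 7.13 on the MS arrays, against 4.24, 2.36 and 3.90 on the GTO arrays. The groups were 2.89 apart at their nearest arrays, and the log2 difference was 4.59. Pmpcb, the catalytic subunit of the peptidase that cuts targeting signals from imported proteins, averaged 6.65 ± 1.19 in MS and 3.85 ± 0.20 in GTO (± SD, n = 3 each). Its GTO arrays lay within 0.39 of each other, with GTO arrays 1 and 3 under log2 4 and GTO array 2 at 4.02. MS array 3, at 5.28, was the lowest MS array. The log2 difference of Pmpcb, 2.80, came to 3.49 without MS array 3.

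Dpp8 and Prep are cytosolic enzymes that cut after proline. Dpp8 read 10.44, 10.29 and 5.88 on the MS arrays, against 5.62, 4.24 and 3.73 on the GTO arrays. MS array 3 stood 0.27 above GTO array 1 and far below the other two MS arrays. The log2 difference of 4.34 came to 5.84 without MS array 3, and to 3.56 and 3.63 without MS array 1 or 2, so that its size rests on which MS arrays are used. Prep, which cuts short peptides, read 8.58, 8.38 and 7.71 on the MS arrays, against 6.37, 6.03 and 3.32 on the GTO arrays. GTO array 3 was the low one, and the log2 difference of 2.98 came to 2.03 without it.

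Pgpep1 takes pyroglutamate off the ends of peptide hormones. It read 4.34, 4.99 and 6.38 on the MS arrays, against 2.40, 2.32 and 2.35 on the GTO arrays. The GTO values were all at background and within 0.08 of each other. MS was at least 2.35-fold higher, or at least 1.58-fold without MS array 3. Nln, neurolysin, a metallopeptidase that cuts neurotensin, averaged 8.27 ± 0.81 in MS and 5.43 ± 1.09 in GTO (± SD, n = 3 each). It was above background on all 6 arrays, with a log2 difference of 2.84.

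Adamts1, a secreted metallopeptidase that cuts proteoglycans of the matrix, read 6.99, 4.65 and 5.61 on the MS arrays, against 3.42, 2.92 and 3.48 on the GTO arrays. All GTO arrays were at background, and MS was at least 3.36-fold higher, or at least 2.19-fold without MS array 1. Of 6 fibroblast markers 1 was on the deposited list, the matrix gene Sparc, with 7.23, 9.32 and 9.13 on the MS arrays, against 3.20, 4.23 and 3.40 on the GTO arrays. Whether other cells contributed to Adamts1 was not tested, and the order of 3 arrays cannot show it. Of 6 Schwann cell markers 1 was listed, Mbp, with 5.98 to 7.18 on the MS arrays, against 2.49 to 3.32 on the GTO arrays. The part of other cells in the results was not tested. Of the 4 satellite glia, 4 macrophage, 3 endothelial and 2 erythroid markers, 0 were listed, and their levels were not analysed here. Of 6 proprioceptor markers, Whrn was listed, at 3.15 to 6.61 in MS and 2.28 to 2.35 in GTO.

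The chaperones were C1galt1c1 and Uri1, with the highest and the lowest log2 difference of the 24 on the values as deposited. With values under log2 4 set to 4, Pgpep1 (1.24), Adamts1 (1.75), Senp2 (1.95), Fbxo8 (1.99) and Trim8 (2.03) lay below Uri1 (2.40), and under quantile normalization Trim8 (1.84) lay below Uri1 (2.01). C1galt1c1, or Cosmc, assists the folding of the single enzyme T-synthase in the endoplasmic reticulum, which starts a common form of sugar chain on proteins. It read 10.23, 10.21 and 8.92 on the MS arrays, against 7.63, 3.47 and 3.89 on the GTO arrays. GTO array 1 stood far above the other GTO arrays, which were at background, and the log2 difference of 4.79 came to 6.11 without it and to 4.03 without GTO array 2. Uri1, a prefoldin-like protein that works with assembly factors of RNA polymerases, read 10.12, 9.09 and 9.39 on the MS arrays, against 8.37, 7.07 and 5.96 on the GTO arrays. All arrays were above background, and the log2 difference of 2.40 came to 1.81 without GTO array 3 and to 3.02 without GTO array 1.

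Of 87 genes in 4 lists of classical chaperones, 4 were on the deposited list (4.60%), against 2.53% of all protein-coding genes. In the lists written for this work, 1 of 20 genes of the large heat shock protein families (Trap1), 2 of 45 DnaJ genes (Dnajb6 and Sec63), 1 of 8 small heat shock genes (Hspb1) and 0 of 14 chaperonin and prefoldin genes were on it. Trap1, a mitochondrial chaperone, averaged 8.37 ± 1.58 in MS and 3.87 ± 1.50 in GTO (± SD, n = 3 each). Sec63, which helps proteins into the endoplasmic reticulum, averaged 7.71 ± 0.23 in MS and 4.69 ± 1.85 in GTO. Dnajb6, a DnaJ protein that holds back protein aggregation, averaged 9.12 ± 1.05 in MS and 3.21 ± 1.86 in GTO. Trap1 was under log2 4 on 1 GTO array, and Sec63 and Dnajb6 on 2 each. The log2 difference of Trap1, 4.50, came to 3.68 without GTO array 3 and to 5.41 without MS array 3. That of Sec63, 3.03, came to 4.09 without GTO array 3, and that of Dnajb6, 5.90, to 6.97 without GTO array 1. The small heat shock gene Hspb1 had a pair of listed probe sets, at background in GTO, that were at least 6.61-fold and at least 1.22-fold higher in MS. The latter read 4.58, 3.79 and 4.49 on MS arrays 1, 2 and 3, so MS array 2 was itself under log2 4.

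Of the other lists, 2 of 26 HECT ligases (Arel1 and Herc1), 1 of 24 cathepsins and calpains (Ctsf) and 0 of 26 genes of degradation at the endoplasmic reticulum and its shuttle factors were on the deposited list. Herc1, a giant ligase, was at least 3.25-fold higher in MS (2.14-fold without MS array 3 and 5.20-fold without MS array 2), and the lysosomal cathepsin Ctsf at least 4.28-fold. Over all 14 lists, 14 of 349 genes were on it (4.01%), against the 2.53% of protein-coding genes and 1.39% of probe sets given above, a difference that was not tested. Absence from the deposited list says nothing of a gene's level, and these counts do not show that the pathway as a whole differed.

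The single arrays differed in how they placed the 24 genes. MS array 3 was the lowest MS array for 16 of the 24 (66.7%), as it was for 36.8% of all tested probe sets and 51.2% of the other listed ones. GTO array 1 was the highest GTO array for 16 of the 24 as well, against 36.4% of all tested and 51.0% of the other listed probe sets. Both held together for 11 of the 24 genes, and for 11.8% of all tested probe sets. The joint share among the other listed probe sets, selected by the same rule, was not computed. The 24 genes averaged 8.06, 7.96 and 7.14 on MS arrays 1, 2 and 3, against 5.07, 4.19 and 3.90 on GTO arrays 1, 2 and 3. GTO array 1 thus lay nearest to the MS arrays, and it was also the GTO array with the highest upper quartile. Of the 24 genes, 0 were under log2 4 on any MS array, against 8, 12 and 18 on GTO arrays 1, 2 and 3.

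Background in GTO set a limit on many of these differences. Of the 24 genes, 6 were under log2 4 on all GTO arrays (among them Arel1, Otub2, Senp2, Pgpep1 and Adamts1), 7 on 2 of them, 6 on 1 and 5 on 0. The share under log2 4 on all GTO arrays was 25.0%, against 33.4% of the other listed probe sets. The 5 genes above background throughout were Dcun1d5, Trim27, Psma1, Nln and Uri1, and their log2 differences ran from 2.40 to 2.93. All 24 passed the filter on low values, 6 of them through the MS arrays alone.

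Re-scaling of the arrays left each of the 24 genes higher in MS and took several below 5-fold. The direction was largely fixed by the selection at 5-fold or more. Under quantile normalization, which shifted the median difference of all tested probe sets by -0.29, the median of the 24 was 2.85 and 17 stayed at 5-fold or more. The 7 that did not were Nln, Pmpcb, Fbxo8, Trim27, Trim8, Adamts1 and Uri1, with log2 differences of 1.84 to 2.27. Overlap between the groups then also held for Nln and Fbxo8, beside Psma1. Centring each array on the median of the tested probe sets gave 19 genes at 5-fold or more, and a floor at log2 4 gave 19.

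**Figure D4:**
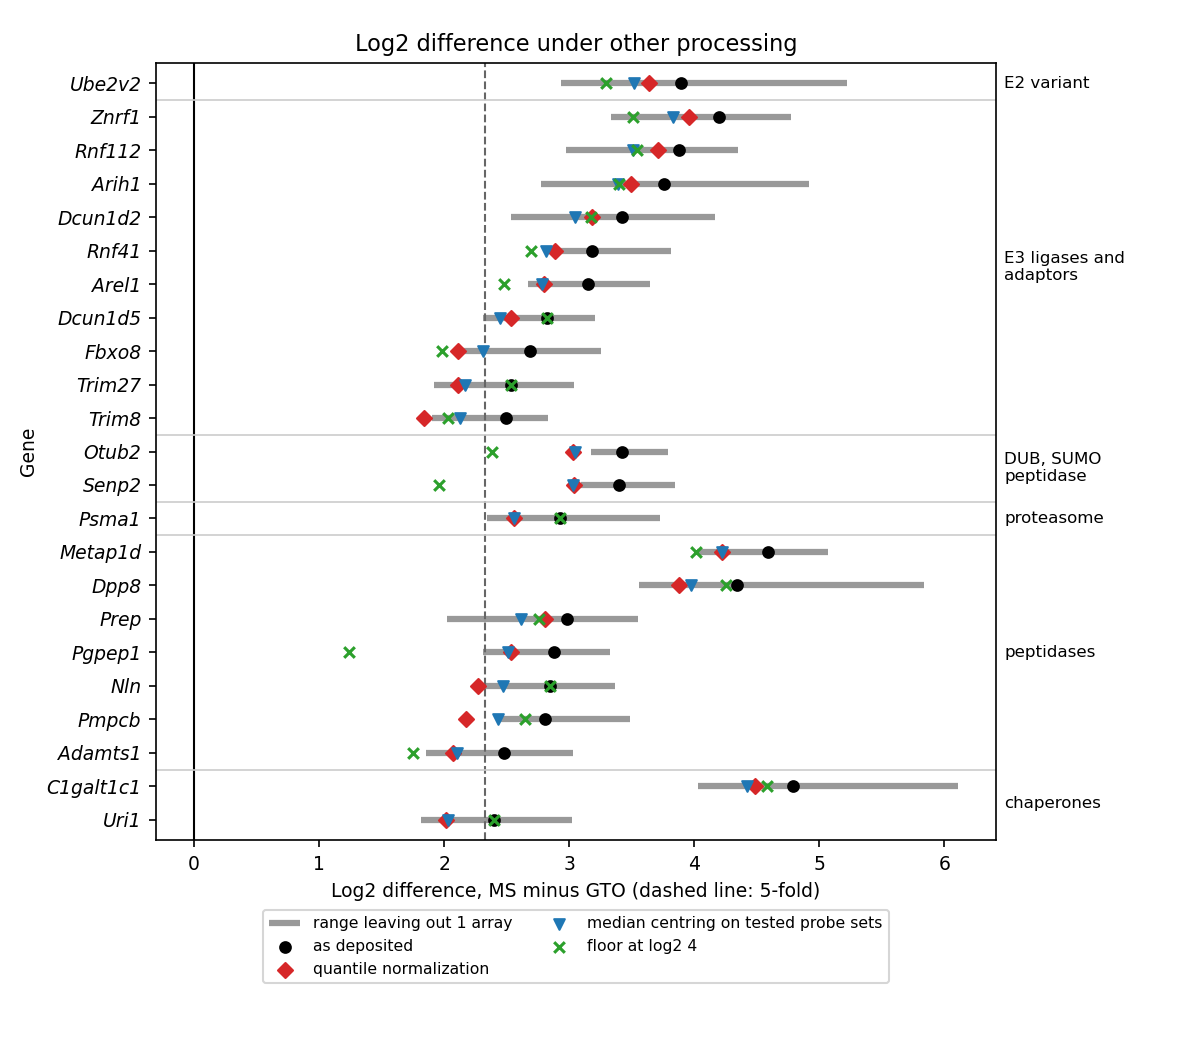
Log2 difference MS minus GTO (x axis) of 23 of the 24 genes (y axis) as deposited and after quantile normalization, median centring on tested probe sets and a floor at log2 4. Grey bars give the range when 1 array is left out, and every value lies right of 0, between 1.24 and 6.11.

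Genes near the thresholds of the list were close to probe sets that missed it. The lowest folds of the 24 in the authors' deposited table were 5.27 for Uri1, 5.57 for Adamts1 and 5.65 for Trim8, and the highest p-values there were 0.0620 for Psma1, 0.0559 for Ube2v2 and 0.0530 for Dpp8. The nearest unlisted probe sets by fold, whose genes are not named here, had folds from 4.98 to just under the threshold with p-values of 0.0571 to 0.0740. The nearest by p had p-values of 0.0801 to 0.0804 with folds of 8.50 to 30.2.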

How the data were processed

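Signals of 6 arrays, 3 of MS and 3 of GTO neurons, were used as log2 values per probe set, deposited by the authors. Per the submitters' processing notes, GCRMA and Partek were used; settings are not stated there. RNA was amplified before labelling, per the labels' protocols. Per the file headers, each entry of the authors' list has its own p-value and its linear ratio of MS to GTO, and sums of squares and F scores deposited by the authors were not used. An array annotation was not used here. The deposited folds equalled 2 to the power of the difference of group means (largest relative deviation 2.1e-05), and its thresholds, applied anew, gave back these 626 entries.

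The 64 control probe sets were left out. Probe sets with log2 of at least 4 on at least 3 arrays, 16256 in number, were tested in limma 3.58.1 (R 4.3.3, lmFit, eBayes, two-sided). Benjamini-Hochberg adjustment was used at 0.05. The model was also run on simulated data, with shifts larger than the differences of the 24 genes and the spread of the MS arrays alone. That run does not show how well differences of the size seen here are found. The number of arrays limits the precision. A fold is a lower bound, against log2 4, where every GTO array was below it. It is taken from the mean of the 3 MS arrays, so it can be lower when 1 of them is left out. All 24 Entrez identifiers matched RefSeq. Members and lists were chosen with earlier results of these data known. By rule, each gene is named, except 1 that is not reported here. Values on every array are given for up to 4 genes of the largest fold per role, overlapping genes, and the 3 of lowest fold or highest p.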

Additional observations from a re-analysis of the deposited data

How the results depend on the processing

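The 24 genes stayed higher in MS under every alternative computed for single genes, 240 values in all, from 1.24 to 6.11. The alternatives were quantile normalization, centring on the median of all or of tested probe sets, a floor at log2 4, and leaving out each array. Selection at 5-fold or more with MS higher largely fixed this direction, so it carries no test. Of the 240 values, 236 moved by less than the spread between replicates. The other 4, with the floor, included those of Otub2, Senp2 and Pgpep1 (2.38, 1.95 and 1.24). The floor lifts GTO values under it. Leaving out 1 of 3 arrays cannot shift a group mean beyond this spread, so those values could not count as moved. By another measure, a fold changed more than 1.5 times, 2 to 6 of the 24 genes moved when 1 array was left out. With the floor 9 did, and under quantile normalization 2. The median of the 24 ranged from 2.95 to 3.62 when 1 array was left out, and the number with no overlap from 23 to 24.

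Counts over all probe sets were less stable. The limma count of 3 past the adjusted threshold was 0 with centring on tested probe sets (1214 at an unadjusted p under 0.05), 0 with the floor (1263), 12 with no filter on low values and 11 with a filter at log2 6. It was 0 to 0 when any 1 array was left out (796 to 1786 probe sets at an unadjusted p under 0.05). The limma count of probe sets 2-fold or more apart with an unadjusted p under 0.05, 1295, ranged from 796 (without MS array 2) and 820 (without MS array 1) to 1786 when 1 array was left out. The rule of the list gave 689 probe sets in both directions, and 529 to 1060 when 1 array was left out, with 1048 without MS array 3 and 1060 without GTO array 1. Of the 1295, 81.3% were higher in MS, against 52.3% under quantile normalization and 61.1% with centring on tested probe sets, and of those by the rule of the list 90.9%, against 75.8% and 77.4%. Centring on tested probe sets, chosen after seeing the data, shifted the median difference of tested probe sets by -0.37, and centring on all probe sets by 0.11.

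With the replicate number as a block, 0 probe sets passed in limma (1401 at an unadjusted p under 0.05). Same-numbered MS and GTO arrays had deviations correlated at -0.06, 0.10 and 0.11, not all above 0.1, and the labels do not say whether a number marks a shared sort, so the arrays were not treated as paired and the pairing is not settled.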
